A study of Mus musculus with 30 samples.

Results

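The subject is the second day of culture of mouse limb mesenchyme in the presence of BMP4. Of the 30 arrays in the series, 12 were chosen by their labels, namely the 6 arrays of BMP4 cultures at day 2 and the 6 arrays of BMP4 cultures at day 1. The sample labels give CD-1 embryos of age E10.5 throughout, whereas the growth protocol also names E11.5 limb buds. Dissociated cells were plated as dense spots. The population called early was the distal part of the hindlimb bud, the intermediate population was the distal part of the forelimb bud, and the late population was the proximal part of the forelimb bud. In all 6 of these groups the medium carried serum and 20 ng/ml BMP4 from the start of culture, and each group held 2 biological replicates. The control cultures of days 1 and 2 (12 arrays, the same 3 populations, serum and no BMP4) served as the background measured in the same way. RNA was pooled from the cultures of many embryos, so an array does not stand for an animal.

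BMP4 is a secreted ligand that binds paired type I and type II receptors, which phosphorylate SMAD1, SMAD5 and SMAD9. These SMADs switch on target genes such as the Id, Msx and Dlx families, and some of the targets, including noggin, Bambi and the inhibitory SMADs, act back on the pathway. In dense cultures, limb bud cells gather into condensations, and part of them go on to make cartilage matrix under the control of SOX9. Others make fibrous, tendon-like matrix or belong to the muscle lineage, which enters the limb bud from the somites.

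Signals were compared as log2(signal + 16), called the level here, and a change is the day 2 level minus the day 1 level. The change was estimated over the 3 populations together with limma, with population as a block, for 15136 genes. A gene rose or fell where its Benjamini-Hochberg adjusted p was under 0.05. Genes were also counted in lists. The lists were chosen with earlier results of these data known, so their counts are descriptions.

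Pitx1 and Tbx4, which mark hindlimb, were high on the 4 early arrays and Tbx5, which marks forelimb, was high on the other 8, as the labels have it. The median signal was 36.2 to 46.4 on the day 1 arrays and 33.9 to 46.1 on the day 2 arrays, and replicates of a group correlated at 0.97 to 0.984 over genes. The early arrays of replicate 2 stood apart at both days: the mean level of the 22 cartilage matrix genes was 6.91 at day 1 and 7.1 at day 2, against 7.51 and 8.33 for replicate 1. The same arrays were low in muscle genes, with a mean level of 5.49 and 5.84 over 23 genes against 5.86 and 7.63. Counts that rest on these arrays are given with and without them.

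The second day brought more rises than falls. In total 586 genes passed, 3.87% of those tested: 373 rose, which is 2.46%, and 213 fell, which is 1.41%. Every list count of BMP4 cultures below is to be read against these shares over all genes. A list with only 1 or 2 genes past the threshold is not read as a result about the list. By limma, 2582 of the 15136 genes had an unadjusted p under 0.05, and unadjusted list counts are to be read against that. With replicate number as a block within populations, 874 genes passed. The balance depended on scaling, since 313 rose and 301 fell once each array was centred on its median. Of the 373, 372 had a positive change in each of the 3 populations, and all 213 that fell had a negative change in each. The median change was 0.69 among the genes that rose, -0.5 among those that fell and -0.001 over all genes tested. Rises were also larger in size, since 91 genes rose and 12 fell by over 1 on the log2 scale. With the early arrays of replicate 2 left out, 622 genes passed in place of 586. Leaving out 1 array at a time gave 331 to 582 genes, and 5 arrays lowered the count by over 1.5 times: both late arrays of day 1 (375 without replicate 1, 331 without replicate 2), late day 2 replicate 1 (334), intermediate day 2 replicate 2 (368) and early day 2 replicate 1 (381).

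The largest rise was that of a matrix gene. Ogn encodes osteoglycin, a small leucine-rich proteoglycan of fibrous tissue and bone. Its level was 5.78 to 7.47 on the day 1 arrays (median 6.47) and 8.76 to 10.17 on the day 2 arrays (median 9.6). All 6 arrays of day 2 lay above all 6 of day 1, with the late arrays highest at both days. Ogn rose by 3.01 ± 0.16 (SE, limma adjusted p 1.18e-06), with changes of 2.7 in early, 3.42 in intermediate and 2.9 in late cultures. Aspn, which encodes the related proteoglycan asporin, read 4.37 to 5.96 at day 1 (median 4.77) and 6.13 to 8.58 at day 2 (median 7.32). Its groups did not overlap, and it rose by 2.43 ± 0.23 (limma adjusted p 0.000252). The size of its rise was less firm, at 1.45 to 3.44 over runs with other processing or with arrays left out. Such separation of all 6 day 2 arrays above all 6 day 1 arrays was found for 122 genes, 0.806% of those tested, and separation below for 131 genes, 0.865%.

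Lox encodes lysyl oxidase, which cross-links collagen and elastin. It read 6.72 to 8.84 at day 1 (median 7.95) and 9.7 to 10.2 at day 2 (median 9.84), without overlap. The day 1 arrays differed far more among themselves than the day 2 arrays, since the late population was already high at day 1 and the early replicate 2 array was lowest. The rise was 2.06 ± 0.28 (limma adjusted p 0.00175), made up of 2.92 in early, 2.11 in intermediate and 1.15 in late cultures. Col8a2, a short-chain collagen gene, rose by 1.97 ± 0.19, and Mgp, which encodes matrix Gla protein, an inhibitor of calcification, rose by 2.08 ± 0.42 with wide spread among arrays (5.49 to 9.26 at day 1 and 7.67 to 10.62 at day 2).

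**Figure D1:**
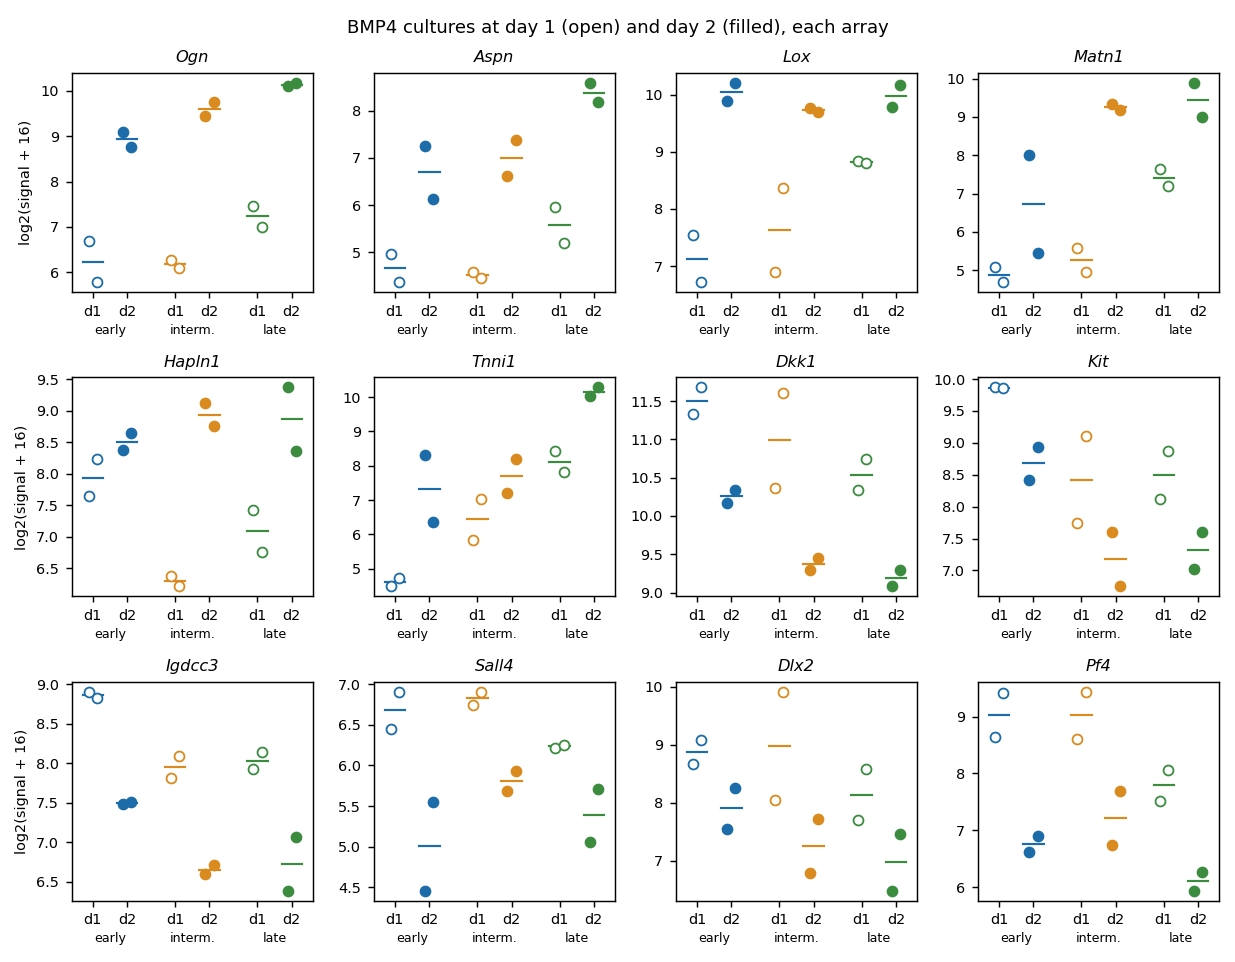
Level, log2(signal + 16), of 12 genes on each of the 12 BMP4 arrays. Open circles are day 1 and filled circles day 2, colours mark the populations, and horizontal lines are means of 2 replicates. The vertical axes differ between genes. Ogn, Aspn, Lox and Hapln1 lay higher on every day 2 array than on any day 1 array, and Dkk1, Igdcc3 and Sall4 lay lower on every one.

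As a group, 11 of the 22 tested genes of tendon and fibrous matrix rose and none fell, where 2.46% of all genes rose. The list's median change was 0.56. Because these are bulk RNA samples, a change in the share of cells of a type cannot be told apart from a change in RNA per cell. Besides Ogn and Aspn the genes that rose were Tnc, Col6a3, Col5a1, Lum, Col1a2, Bgn, Col3a1, Postn and Dcn. Dcn did not pass with the mean of its probe sets (limma adjusted p 0.319). Tnc, the gene for tenascin-C, rose by 1.21 ± 0.14 (limma adjusted p 0.000731), from 7.63 to 9.09 at day 1 to 9.36 to 10.14 at day 2, without overlap. Col6a3, for a collagen VI chain, rose by 0.86 ± 0.11 and also did not overlap (7.08 to 7.7, then 7.86 to 8.57). Lum, for lumican, rose by 0.95 ± 0.15, Postn, for periostin, by 1.03 ± 0.24, and the fibrillar collagen genes Col1a2, Col3a1 and Col5a1 by 0.58 ± 0.1, 0.52 ± 0.12 and 0.76 ± 0.12. The mean level of the 22 genes was 8.14 to 8.59 on day 1 arrays and 9.06 to 9.32 on day 2 arrays. The count was 10 without the early arrays of replicate 2, and 7 to 12 when 1 array at a time was left out, with 7 without either late array of day 1, intermediate day 2 replicate 2 or late day 2 replicate 1.

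Cartilage matrix genes rose too, with more spread between arrays and populations. Of 22 tested, 9 rose and none fell, where 2.46% of all genes rose. The median change was 0.89 over the 3 populations, being 0.37 in early, 1.38 in intermediate and 0.67 in late cultures. Matn1 encodes matrilin-1, an adaptor protein of cartilage matrix. Its level was 4.69 to 7.63 at day 1 (median 5.34) and 5.44 to 9.88 at day 2 (median 9.09), and the overlap came from the early replicate 2 array, lowest of day 2. Within each population both day 2 arrays were above both day 1 arrays. Matn1 rose by 2.61 ± 0.42 (limma adjusted p 0.005), and by 2.99 (adjusted p 0.000949) without the early arrays of replicate 2.

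Hapln1, the link protein that ties aggrecan to hyaluronan, read 6.21 to 8.23 at day 1 (median 7.09) and 8.36 to 9.37 at day 2 (median 8.7). The groups did not overlap, with the intermediate arrays lowest at day 1. It rose by 1.66 ± 0.29 (limma adjusted p 0.0077). The other members that rose were Cytl1 (1.84 ± 0.41), a secreted protein made in cartilage, Mia (1.77 ± 0.43), a secreted protein of cartilage and melanoma, Chad (1.54 ± 0.35), chondroadherin, Comp (1.49 ± 0.36), cartilage oligomeric matrix protein, Snorc (1.08 ± 0.24), a membrane proteoglycan, Col11a2 (1.01 ± 0.24) and Matn3 (0.89 ± 0.23). Csgalnact1, whose enzyme starts chondroitin sulphate chains, is in no list and rose by 1.92 ± 0.25.

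The best-known cartilage genes did not pass. Col2a1, for the main cartilage collagen, read 10.05 to 11.84 at day 1 (median 11.6) and 10.25 to 12.17 at day 2 (median 11.76), and its change was 0.21 ± 0.23 (limma adjusted p 0.719). Acan, for aggrecan, had a change of 0.67 ± 0.23 (adjusted p 0.139), and Sox9 one of -0.31 ± 0.24 (adjusted p 0.557), with levels of 8.06 to 10.1 at day 1 and 8.44 to 9.7 at day 2. Among 11 tested chondrogenic transcription factors, Foxa3 (0.67 ± 0.15) and Foxc2 (0.99 ± 0.25) rose. Each was lost in 9 of the 12 fits that left out 1 array, and the count was 0 without either late array of day 1, either late or either intermediate array of day 2, intermediate day 1 replicate 2 or early day 2 replicate 1. It was 1 without intermediate day 1 replicate 1 or early day 1 replicate 2. None of 10 tested genes of cartilage maturation and bone passed by limma, and 8 had a change above 0. An unadjusted p under 0.05 was found for 3 of them, and for 2582 of all 15136 genes. The 3 were Panx3, for a channel protein, with a change of 0.76 (adjusted p 0.0633), Sp7, for osterix, with 0.34 (adjusted p 0.114), and Col10a1, for the collagen of hypertrophic cartilage, with 0.55 (adjusted p 0.183). In control cultures 5 of the 10 rose and none fell, in the fit of BMP4 and control arrays together, where 5.64% of all genes rose. The list's median change was 0.77 there and 0.19 with BMP4. The difference between BMP4 and control cultures passed for none of the 10 and had an unadjusted p under 0.05 for 4.

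The cartilage count depended on single arrays. It was 14 without the early arrays of replicate 2. Of single arrays, leaving out late day 1 replicate 2, intermediate day 2 replicate 1 or late day 2 replicate 1 gave 2. Leaving out late day 1 replicate 1, intermediate day 1 replicate 1, late day 2 replicate 2 or early day 2 replicate 1 gave 3, intermediate day 2 replicate 2 gave 4, and early day 1 replicate 2 gave 5. Without a filter on dim genes or without the mean-variance trend it was 5, and with replicate number as a block within populations it was 15. Matn1 and Hapln1 passed in each of the 12 fits that left out 1 array, whereas Col11a2, Matn3 and Mia were lost in 10 of the 12.

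**Figure D2:**
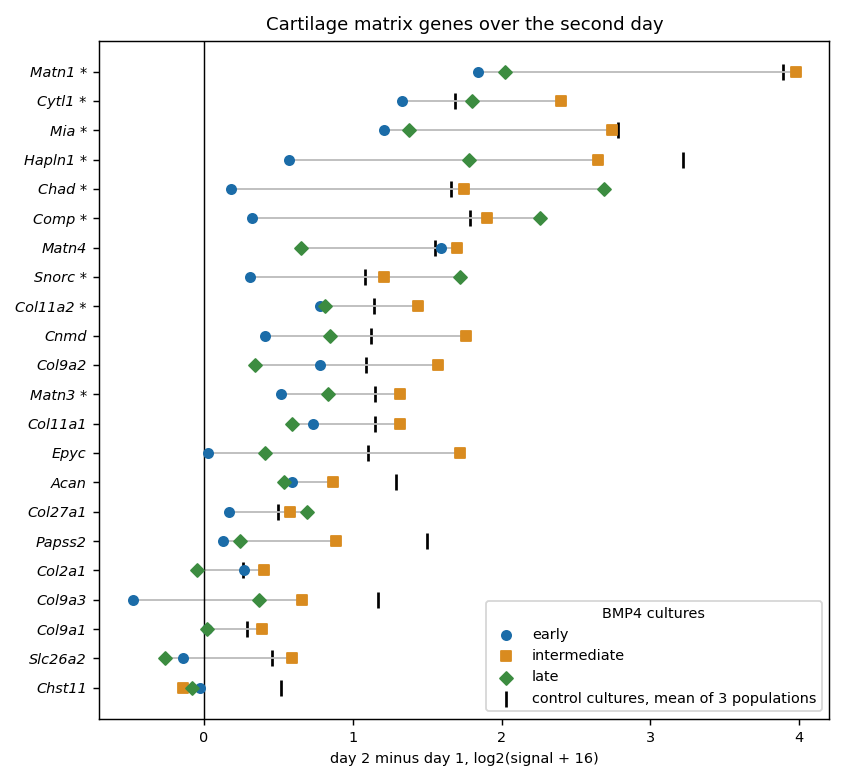
Change over the second day of the 22 tested cartilage matrix genes, in log2(signal + 16). Coloured markers are the early, intermediate and late BMP4 cultures (2 arrays a day each), joined by grey lines, and black ticks are control cultures averaged over the 3 populations. Asterisks mark the 9 genes past the limma threshold in the BMP4 cultures, and the intermediate value was the highest of the 3 for most genes, Matn1 reaching 3.98.

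Muscle genes were among the largest single rises. Tnni1, the slow skeletal troponin I gene, read 4.49 to 8.43 at day 1 (median 6.44) and 6.35 to 10.28 at day 2 (median 8.25). The late arrays were highest at each day and the groups overlapped over all populations, but within each population both day 2 arrays were above both day 1 arrays. Tnni1 rose by 2 ± 0.34 (limma adjusted p 0.00657), and Myl4, an embryonic myosin light chain gene, by 1.98 ± 0.46. Tnni1 passed in each of the 12 fits that left out 1 array, whereas Myl4 was lost in 8. Of 23 tested skeletal muscle markers 5 rose and none fell, where 2.46% of all genes rose. The others were Tnnc1 (1.67 ± 0.37), Tnnc2 (1.8 ± 0.47) and Myh8 (0.8 ± 0.2), and the list's median change was 0.8. Tnnc1 was lost in 5, Tnnc2 in 10 and Myh8 in 9 of the 12 fits that left out 1 array. The transcription factor genes Myod1, Myog and Pax3 did not pass, with changes of 0.53, 0.92 and -0.16. Of all 23 markers, 21 had a change above 0. An unadjusted limma p under 0.05 was found for 18 of them, and for 2582 of all 15136 genes. Whether regulators and structural genes differed was not tested. With replicate number as a block within populations, 14 markers rose. The mean level of the list was 5.49 to 8.31 on day 1 arrays and 5.84 to 9.07 on day 2 arrays. The count was 14 without the early arrays of replicate 2, and 12 without early day 2 replicate 2 alone. It was 1 without late day 1 replicate 2, early day 1 replicate 2 or late day 2 replicate 1, and 2 without late day 1 replicate 1, intermediate day 1 replicate 1, intermediate day 2 replicate 2, late day 2 replicate 2 or early day 2 replicate 1. Whether the share of muscle cells differed between arrays was not tested.

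In the smooth muscle list, Myh11 (0.98 ± 0.21), for smooth muscle myosin, and Actg2 (1.29 ± 0.33), for enteric actin, rose among 16 tested genes, where 2.46% of all genes rose. Actg2 read 6.85 to 8.27 at day 1 and 7.16 to 10.34 at day 2. Neither passed without the early arrays of replicate 2, with adjusted p 0.0554 for Myh11 and 0.122 for Actg2.

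BMP targets and feedback genes fell. Of 20 tested, 8 fell and none rose, where 1.41% of all genes fell. The median change was -0.45, with 18 of the 20 below 0. Id1, an inhibitor of bHLH factors and an immediate SMAD target, read 10 to 10.53 at day 1 (median 10.11) and 9.42 to 9.9 at day 2 (median 9.6). All 6 arrays of day 2 lay below all 6 of day 1. Id1 fell by 0.57 (SE 0.07, limma adjusted p 0.000986), with changes of -0.53 in early, -0.63 in intermediate and -0.55 in late cultures. Id2 (11.09 to 11.59, then 10.68 to 11.09) and Id3 (10.63 to 11.15, then 10.26 to 10.56), which encode proteins of the same family, also did not overlap between days, although for Id2 the early day 2 replicate 2 array and the intermediate day 1 replicate 2 array were level to 2 decimals. Id2 fell by 0.43 (SE 0.07, limma adjusted p 0.00687) and Id3 by 0.48 (SE 0.08, adjusted p 0.00801). Id4, the fourth family member, had a change of -0.19 (adjusted p 0.573).

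The homeobox genes Dlx2, Msx1 and Msx2, which act in distal and craniofacial mesenchyme, fell by 1.29 (SE 0.31), 0.68 (SE 0.16) and 0.78 (SE 0.18). Dlx2 read 7.7 to 9.92 at day 1 (median 8.64) and 6.49 to 8.26 at day 2 (median 7.52). Its groups overlapped, yet both day 2 arrays were below both day 1 arrays in each population. Bambi, a receptor decoy, fell by 0.78 (SE 0.18), and Nog, which encodes the antagonist noggin, by 0.59 (SE 0.15, limma adjusted p 0.0494). Nog read 8.28 to 8.84 at day 1 and 7.13 to 8.56 at day 2, and 5.57 to 7.07 and 6.21 to 7 in control cultures of the same days. Thus its level at day 2 was still above every control array. The inhibitory SMAD genes did not pass, Smad6 with -0.29 ± 0.19 and Smad7 with -0.42 ± 0.14, nor did the T-box genes Tbx2 (-0.65), Tbx3 (-0.63) and Tbx20 (-0.1).

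Id1, Id2 and Id3 passed in each of the 12 fits that left out 1 array. The other 5 did not, and without the early arrays of replicate 2 the count of targets that fell was 4, with adjusted p from 0.0508 to 0.0802 for Dlx2, Bambi, Nog and Msx1. It was 3 without late day 2 replicate 1 or early day 2 replicate 1, and 4 without late day 1 replicate 2 or early day 1 replicate 2. It was 5 without intermediate day 1 replicate 2, late day 1 replicate 1 or either intermediate array of day 2. It was 5 with no filter on dim genes or with the mean of probe sets, 4 with 6 group means and 3 without the mean-variance trend.

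Promoter sequence is shown for Id2, Id3 and Dlx2, among the targets that fell, because GGCGCC is a known BMP response element. Msx1 and Msx2 also fell and had a window, which held no GGCGCC and is not shown. The windows run from 250 bases before to 50 after the transcription start, 5′ to 3′ on the gene's strand, from RefSeq on GRCm38.p6, with each GGCGCC in capitals.
Id2 (chr12:25096043-25096342, minus strand): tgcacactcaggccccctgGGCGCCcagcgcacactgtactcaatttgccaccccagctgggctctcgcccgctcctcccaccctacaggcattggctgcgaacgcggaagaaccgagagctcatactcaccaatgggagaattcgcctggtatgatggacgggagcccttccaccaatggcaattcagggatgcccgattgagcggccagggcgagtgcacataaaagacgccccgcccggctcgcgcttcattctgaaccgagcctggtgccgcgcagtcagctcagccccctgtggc
Id3 (chr4:136143572-136143871, plus strand): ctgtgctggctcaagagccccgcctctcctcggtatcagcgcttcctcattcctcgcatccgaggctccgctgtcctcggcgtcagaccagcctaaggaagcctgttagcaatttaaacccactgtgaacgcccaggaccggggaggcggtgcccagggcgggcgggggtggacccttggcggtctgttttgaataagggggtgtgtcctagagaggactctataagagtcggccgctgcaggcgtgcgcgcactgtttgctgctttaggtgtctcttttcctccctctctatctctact
Dlx2 (chr2:71546705-71547004, minus strand): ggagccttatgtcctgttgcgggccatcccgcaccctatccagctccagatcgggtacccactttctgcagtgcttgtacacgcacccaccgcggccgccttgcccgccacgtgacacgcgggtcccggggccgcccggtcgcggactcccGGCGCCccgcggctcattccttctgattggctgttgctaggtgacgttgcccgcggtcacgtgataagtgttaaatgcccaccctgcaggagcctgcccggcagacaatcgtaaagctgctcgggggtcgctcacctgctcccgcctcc
The motif, which reads the same on both strands, was in 5 of the 10 tested BMP targets that had a window and in 2 of the 5 of these that fell. Across all 27025 windows 12% held it, and 19.9% of the 12112 windows of tested genes did. A match describes the letters only.

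**Figure D3:**
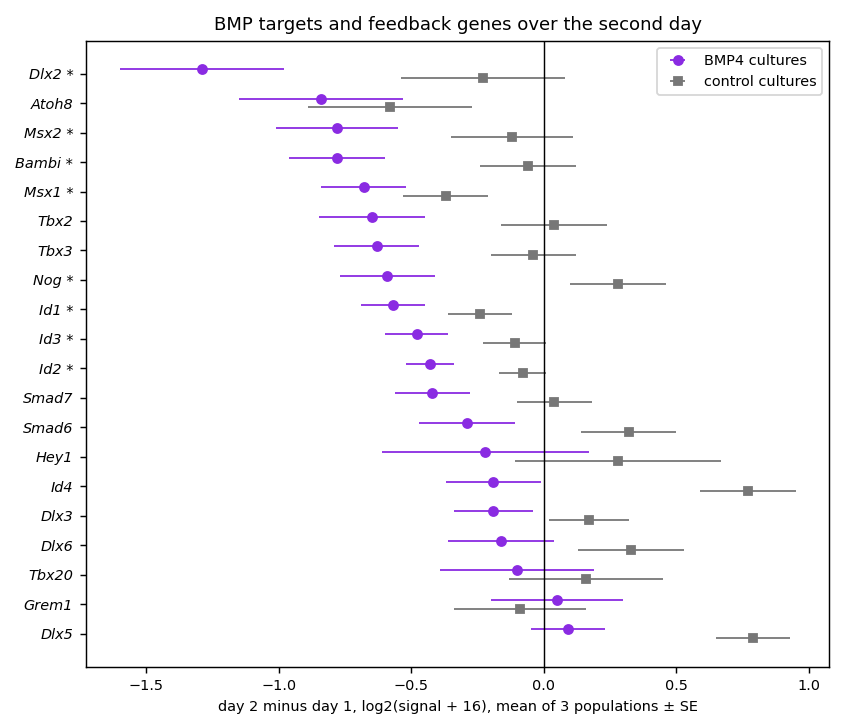
Change over the second day of the 20 BMP target and feedback genes, in log2(signal + 16), as the mean of 3 populations with its standard error from the fit of 24 arrays. Circles are BMP4 cultures and squares control cultures, and asterisks mark the 8 genes that fell in the comparison of 12 BMP4 arrays. Most circles lie left of 0 and most squares near or right of it.

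Genes that make or receive BMP signals moved in both directions. Of 15 tested ligands, receptors and SMADs, Bmp2 (0.76 ± 0.19), Bmp5 (0.58 ± 0.11) and Gdf5 (0.64 ± 0.16) rose. Leaving out 1 array, Bmp5 passed in all 12 fits, Bmp2 was lost in 8 and Gdf5 in 10. The count of rises was 1 without intermediate day 1 replicate 1, either late array of day 1, intermediate day 2 replicate 1, late day 2 replicate 2 or early day 2 replicate 1. Bmpr2, the type II receptor gene, fell by 0.37 (SE 0.07, limma adjusted p 0.0114), from 10.2 to 10.55 at day 1 to 9.84 to 10.19 at day 2, without overlap. With the mean of its probe sets in place of the brightest, Bmpr2 did not pass (adjusted p 0.17). Gdf5 marks joint-forming tissue and was the 1 gene of 11 in the joint interzone list to rise, but it was lost without the early arrays of replicate 2 (adjusted p 0.0879). Among 10 secreted antagonists, Sostdc1 rose by 1.23 ± 0.24, while Sost and Nog fell, Sost by 0.63 (SE 0.14). Sostdc1 passed in all 12 fits that left out 1 array, whereas Sost was lost in 8 and Nog in 10. The count of falls was 0 without either late array of either day, intermediate replicate 2 of either day or early replicate 1 of either day, and 1 without intermediate day 1 replicate 1 or early day 2 replicate 2.

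Secreted WNT antagonists split. Dkk1, which blocks the LRP co-receptors and is a known BMP-induced gene of the limb, read 10.34 to 11.68 at day 1 (median 11.04) and 9.08 to 10.34 at day 2 (median 9.38). The highest day 2 array, early replicate 2, came close to the lowest day 1 array, late replicate 1, but the days did not overlap. Dkk1 fell by 1.4 (SE 0.17, limma adjusted p 0.000757). Dkk2 rose by 1.03 ± 0.16 and Dkk3 by 0.98 ± 0.13, both without overlap, and Frzb, a decoy for WNT ligands, fell by 0.45 (SE 0.11). Of the 21 tested WNT genes 3 rose and 3 fell, the others being the ligand gene Wnt11, which rose by 0.68 ± 0.13, and Lef1, the nuclear effector, which fell by 0.81 (SE 0.17). Frzb was lost in 9 of the 12 fits that left out 1 array and with the mean of its probe sets (-0.39, adjusted p 0.184). Without late day 1 replicate 1 the count of falls was 1, as Lef1 was lost too.

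TGF-beta receptors rose in part. Tgfbr2, the type II receptor gene, rose by 0.79 ± 0.08 (limma adjusted p 0.000252), from 8.28 to 9.11 at day 1 to 9.17 to 9.94 at day 2, without overlap. Tgfbr3, for betaglycan, rose by 0.75 ± 0.12, the ligand gene Tgfb3 by 0.81 ± 0.15 and Ccn2, a matricellular target, by 0.59 ± 0.14. Acvr2b, an activin receptor gene, fell by 0.84 (SE 0.12), and its days did not overlap (7.46 to 7.99, then 6.47 to 7.11). In all, 4 of 19 tested members rose and 1 fell, and Ccn2 was lost in 9 of the 12 fits that left out 1 array.

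Some genes of distal limb mesenchyme fell. Sall4, a zinc finger factor of early limb bud and pluripotent cells, read 6.22 to 6.91 at day 1 (median 6.6) and 4.46 to 5.93 at day 2 (median 5.61). The days did not overlap, and the early replicate 1 array of day 2 was lowest. Sall4 fell by 1.18 (SE 0.2, limma adjusted p 0.00705). In the list of distal and FGF-responsive limb genes 5 of 18 fell and none rose, where 1.41% of all genes fell. Besides Sall4 these were the LIM homeobox genes Lhx2 (-0.85 ± 0.13) and Lhx9 (-0.87 ± 0.15), Sall1 (-0.86 ± 0.22) and Msx1. The list's median change was -0.1, with 8 genes above 0 and 10 below. The count was 3 without the early arrays of replicate 2, where Sall1 and Msx1 were lost. It was also 3 without either late or either early array of day 1, intermediate day 2 replicate 2, late day 2 replicate 1 or either early array of day 2. In control cultures 4 of the 18 genes fell and none rose, where 2.85% of all genes fell, and the list's median change was -0.37. These control counts are from the fit of BMP4 and control arrays together. The difference between BMP4 and control cultures passed for none of the 18.

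Among 16 tested HoxA and HoxD genes, which set position along the limb, 3 fell, where 1.41% of all genes fell. These were Hoxd9 (-0.94 ± 0.11, limma adjusted p 0.000731), Hoxd10 (-0.54 ± 0.1) and Hoxa9 (-0.35 ± 0.09). Hoxa9 was lost without the early arrays of replicate 2 (adjusted p 0.0621) and with the mean of its probe sets (-0.23, adjusted p 0.179). Hand2, a posterior limb factor, fell by 0.58 (SE 0.13), and Gas1, a hedgehog co-receptor gene, rose by 0.44 ± 0.08, though not with the mean of its probe sets (0.25, adjusted p 0.402). In the list of general limb mesenchyme Prrx2 fell by 0.72 (SE 0.14), and its days did not overlap (9.95 to 10.89, then 9.42 to 9.75). Of 12 proximal limb genes, Pkdcc, which encodes a secreted kinase, rose by 0.61 ± 0.12, and Meis2 had a change of 0.02 (adjusted p 0.975). None of the 6 tested limb-type genes passed by limma (0 with an unadjusted p under 0.05), among them Pitx1 (0.33 ± 0.21), Tbx4 (-0.02 ± 0.13) and Tbx5 (-0.13 ± 0.22). The GATA factors and cofactors did not pass either, Gata6 with -0.03 ± 0.29.

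Other single genes fell further. Igdcc3, an immunoglobulin superfamily gene, read 7.82 to 8.91 at day 1 (median 8.12) and 6.39 to 7.51 at day 2 (median 6.89), without overlap. Its changes of -1.37, -1.31 and -1.3 in early, intermediate and late cultures were nearly equal, and it fell by 1.33 (SE 0.11, limma adjusted p 0.000136). With the mean of the gene's probe sets in place of the brightest, the change was -0.37 (adjusted p 0.0677). Kit, the receptor for stem cell factor, fell by 1.21 (SE 0.23), from 7.75 to 9.87 at day 1 to 6.75 to 8.94 at day 2, with changes of -1.19, -1.25 and -1.19. The early arrays were highest at both days, so the days overlapped over all populations but not within any of them. Cxcl12, a chemokine gene of mesenchyme, rose by 1.31 ± 0.16 without overlap (7.63 to 8.63, then 9.06 to 9.61).

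Pf4 fell most, by 1.92 (SE 0.21, limma adjusted p 0.000485), and Ppbp by 1.36 (SE 0.24). Both encode chemokines best known from platelets, and they are neighbours on chromosome 5. Pf4 read 7.52 to 9.44 at day 1 (median 8.63) and 5.94 to 7.69 at day 2 (median 6.68), with both day 2 arrays below both day 1 arrays in each population. None of 15 tested macrophage and leukocyte markers passed by limma, and 2 had an unadjusted p under 0.05, as did 2582 of all 15136 genes. These 2 were Ctss, for cathepsin S, with a change of 0.35 (unadjusted p 0.0147), and Lyz2, for lysozyme, with 0.37 (unadjusted p 0.0214). The mean level of the list was 5.99 to 7.17 at day 1 and 5.99 to 7.29 at day 2. The list's median change was 0.01, with 8 genes above 0 and 7 below, and Csf1r, the macrophage growth factor receptor gene, had a change of -0.01. None of 16 endothelial, 10 red blood cell and 9 nerve and Schwann cell markers passed, and 0, 0 and 4 of them had an unadjusted p under 0.05. Platelet precursor markers formed no list, and their part was not tested.

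The remaining named falls were Rasgef1b (-1.21 ± 0.14), Hsd11b2 (-1.21 ± 0.21), whose enzyme inactivates glucocorticoids, Dusp9 (-1.02 ± 0.19), a MAP kinase phosphatase, Cadps (-1.02 ± 0.18), which primes secretory vesicles, Rem2 (-0.96 ± 0.19), a Ras-like GTPase, and Phlda2 (-0.96 ± 0.18), an imprinted gene. The remaining named rises were Rtl3 (2.65 ± 0.45), a gene derived from a retrotransposon, Cbr2 (2.22 ± 0.28), a carbonyl reductase, Nfix (1.83 ± 0.23), a nuclear factor I gene, and Bhlhe40 (1.82 ± 0.36), a transcriptional repressor. Bhlhe40 read 4.44 to 4.7 on all day 1 arrays, close to the lowest value the scale allows, and 5 to 8.34 at day 2. The size of its rise depends on the added constant (2.91 with log2(signal + 1) and 0.96 with log2(signal + 64)). Over runs with other processing or with arrays left out, other sizes varied widely too. The change was 1.35 to 3.11 for Cbr2, 0.85 to 2.46 for Chad, 0.4 to 2.06 for Myh11 and -1.79 to -0.44 for Rem2.

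Of 10 CDK inhibitor and cyclin D genes 2 rose, where 2.46% of all genes did. Cdkn2b, for the CDK inhibitor p15, rose by 1.17 ± 0.17 (limma adjusted p 0.00271), from 6.45 to 6.98 at day 1 to 7.28 to 8.7 at day 2, without overlap. Cdkn2c, for p18, rose by 0.69 ± 0.16. Of 20 DNA replication genes, Uhrf1 fell by 0.39 (SE 0.1), and the list's median change was -0.1. Uhrf1 was lost without the early arrays of replicate 2 (adjusted p 0.0932) and with the mean of its probe sets (adjusted p 0.245). None of the 19 tested mitosis genes passed by limma and 3 had an unadjusted p under 0.05, as did 2582 of all 15136 genes. The change was below 0 for 17 of them, with a median of -0.12 and the largest decline in Cenpa (-0.29, adjusted p 0.281). The CHR element TTTGAA, on either strand, was in the promoter windows of 11 of the 15 mitosis genes that had one, against 12.3% of windows of tested genes.

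Genes of low-oxygen and sugar metabolism included Pdk1 (1.32 ± 0.23), which restrains pyruvate entry into mitochondria, P4ha1 (0.77 ± 0.16), a collagen prolyl hydroxylase gene, and Vegfa (0.53 ± 0.11). These 3 rose among 18 tested, where 2.46% of all genes rose, with a median change of 0.39 and 17 above 0. In control cultures 8 of the 18 rose, with a median change of 0.51, in the fit of BMP4 and control arrays together, where 5.64% of all genes rose. The difference between BMP4 and control cultures passed for none of these 18. Klf4 (1.04 ± 0.14) and Klf2 (0.7 ± 0.16), Krüppel-like factors, rose among 18 immediate early genes. Rarb, a retinoic acid receptor gene, rose by 0.91 ± 0.18 and Rbp4 by 0.57 ± 0.15 among 14 retinoid genes. Of the 12 fits that left out 1 array, Cdkn2c was lost in 8, Klf2 in 9, Rbp4 in 10, Hoxa9 in 8, Hand2 in 4 and Vegfa in 3.

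**Figure D4:**
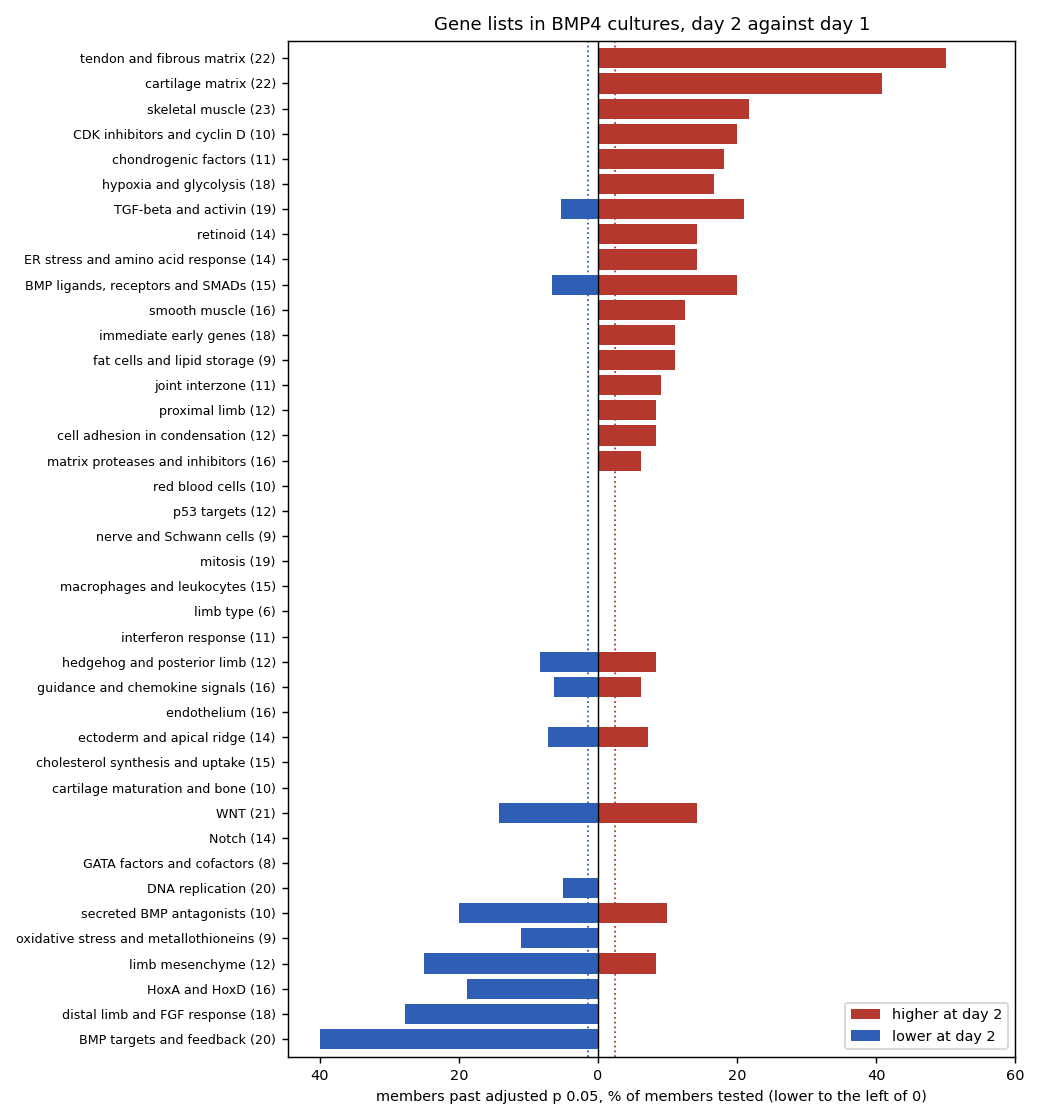
Share of the tested members of 40 gene lists that rose (right) or fell (left) over the second day in BMP4 cultures at a limma adjusted p under 0.05, in percent of the members tested, whose number is in brackets. Dotted lines are the shares over all 15136 genes, 2.46% higher and 1.41% lower. Tendon and fibrous matrix and cartilage matrix stand furthest right, and BMP targets furthest left. The lists were chosen with earlier results of these data known, so the shares describe them and are no independent test.

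The populations were then compared in how far they changed. No gene passed the limma F test for a change that differed between the 3 populations (0% of 15136). An unadjusted p under 0.05 was found for 781, where about 757 are expected by chance. With replicate number as a block within populations, 5 genes passed the F test. The pairwise differences gave 0 genes each by limma, with 858, 708 and 890 at an unadjusted p under 0.05 for early against intermediate, early against late and intermediate against late. Within single populations 7 genes rose (0.0462%) and 1 fell (0.00661%) in early cultures, 0.0529% in all. In intermediate cultures 24 rose (0.159%) and 4 fell (0.0264%), 0.185% in all, and in late cultures 33 rose (0.218%) and 3 fell (0.0198%), 0.238% in all. These counts come from 2 arrays a day and do not show that the populations differed.

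The genes with the smallest F test p were these. Kif26a, a kinesin family gene, had changes of -2.43 in early, -2.13 in intermediate and -0.06 in late cultures (F test p 2.9e-05, adjusted 0.219). Its early arrays read 7.47 and 6.99 at day 1 and 4.89 and 4.72 at day 2, its intermediate arrays 6.51 and 7.03, then 4.57 and 4.71, and its late arrays 6.8 and 6.59, then 6.72 and 6.56. Over all populations it fell by 1.54 (SE 0.31), but it did not pass without the early arrays of replicate 2 (adjusted p 0.0524), and the difference between populations did not pass.

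Angptl4, a secreted lipase inhibitor, read 7.31 and 7.38 at day 1 and 8.15 and 7.98 at day 2 in early cultures, but 8.04 and 7.88, then 7.03 and 6.93, in late cultures. Its changes were 0.72, -0.05 and -0.98 (F test p 2.39e-05, adjusted 0.219). Fgf18, a growth factor gene of skeletal tissue, had changes of -0.57, 0.47 and 1.42 (adjusted p 0.557), and Ncmap, a myelin-associated gene, 0.19, 2.15 and 2.1 (adjusted p 0.763). The other 8 were Gm19619, Tmbim7, Olfm1, Pou5f2, Pfkfb3, Trpv4, Ankrd66 and Oprm1, with adjusted p from 0.557 to 0.903. For Lox (F test p 0.027) and Bhlhe40 (F test p 0.00618) the adjusted p was 0.903 for each.

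Control cultures showed how much of the second day was shared. Over the same interval without BMP4, 854 genes rose (5.64%) and 432 fell (2.85%) in a fit of all 24 arrays, against 506 (3.34%) and 324 (2.14%) with BMP4 in that fit. In all 8.5% of genes passed without and 5.48% with BMP4. No array is shared between these changes. Across genes the 2 changes correlated at 0.619, a description over 15136 genes that are not independent. Of the 373 genes that rose with BMP4, 363 (97.3%) had a positive change in control cultures and 244 passed there. Of the 213 that fell, 191 (89.7%) had a negative change and 96 passed. The median control change was 0.6 for the former, -0.31 for the latter and -0.001 over all genes tested.

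Matrix genes rose in control cultures as well. In the fit of 24 arrays, 17 of the 22 cartilage matrix genes rose there and 12 rose with BMP4. Over all genes 5.64% rose without and 3.34% with BMP4. The list's median control change was 1.15. For Matn1 the control change was 3.89 ± 0.32, for Hapln1 3.22 ± 0.22 and for Acan 1.29 ± 0.21 (limma adjusted p 0.000918). Hapln1 read 5.36 to 6.03 on the control arrays of day 1, below every BMP4 array of that day, and 7.93 to 9.48 at day 2. The difference between its changes was -1.55 (adjusted p 0.106). Of the tendon and fibrous matrix list 14 genes rose in control cultures, among them Ogn (2.52 ± 0.16) and Aspn (2.76 ± 0.21). In the same fit 14 genes of that list rose with BMP4.

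BMP targets did not follow this pattern in their counts. In the fit of 24 arrays, 7 of the 20 fell with BMP4. None of the 20 fell and 2 rose in control cultures, and their median control change was 0. Id4 and Dlx5 were the 2 that rose, by 0.77 ± 0.18 and 0.79 ± 0.14. For Id1 the control change was -0.24 ± 0.12, for Dlx2 -0.23 ± 0.31 and for Nog 0.28 ± 0.18, but the difference between BMP4 and control cultures did not pass for any of the 20 by limma and had an unadjusted p under 0.05 for 10, Nog having an unadjusted p of 0.00273. Kit, at 6.77 to 7.1 on the control arrays of day 1 and 6.39 to 7.88 at day 2, changed by -0.05 ± 0.22 there (difference -1.16 ± 0.3, adjusted p 0.286).

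For 2 genes the second-day change differed between BMP4 and control cultures (0.0132% of those tested, both lower with BMP4). By limma 1081 had an unadjusted p under 0.05, where about 757 are expected by chance. With replicate number as a block within populations, 56 genes passed. Kitl, the gene for stem cell factor, the ligand of Kit, read 7.02 to 7.73 at day 1 and 8.16 to 8.94 at day 2 in control cultures. In BMP4 cultures it read 7.7 to 8.8, then 7.64 to 8.24. All control arrays of day 2 were above all of day 1, whereas the BMP4 days overlapped. Kitl changed by 1.18 ± 0.13 without and -0.26 ± 0.13 with BMP4, a difference of -1.44 ± 0.19 (limma adjusted p 0.00655). It was -1.4 without the early BMP4 arrays of replicate 2 (adjusted p 0.055) and -0.83 with the mean of its probe sets (adjusted p 0.0283).

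Bmper encodes a secreted protein that binds BMPs. Its level was 7.61 to 8.46 at day 1 and 9.16 to 9.49 at day 2 in control cultures, and 9 to 9.58, then 9.17 to 9.73, in BMP4 cultures. The BMP4 cultures thus already held at day 1 about the level that control cultures had at day 2. The changes were 1.1 ± 0.1 without and 0.09 ± 0.1 with BMP4, and the difference was -1.01 ± 0.13 (limma adjusted p 0.00655, or 0.0956 when all 30 arrays were fitted). Kif26a and Cadps, which fell with BMP4, had control changes of 0.14 ± 0.24 and 0.18 ± 0.17, and their differences of -1.68 and -1.19 did not pass (adjusted p 0.106 each).

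**Figure D5:**
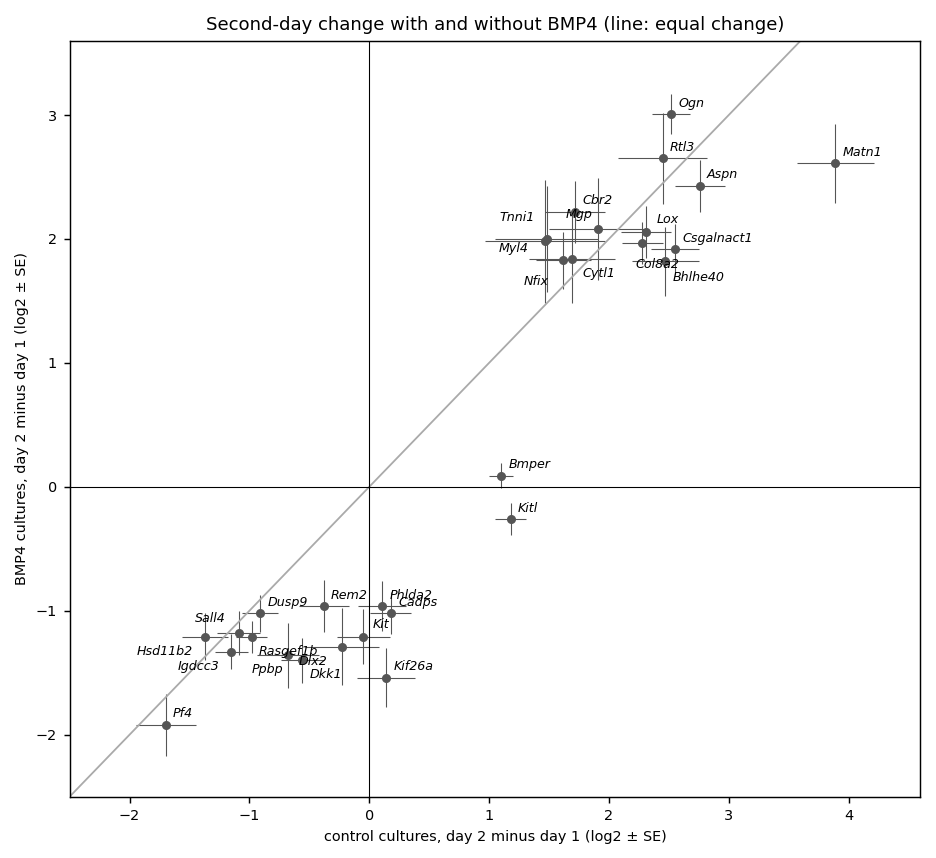
Change over the second day in control cultures (horizontal) and BMP4 cultures (vertical), both in log2(signal + 16) averaged over 3 populations with standard errors from the fit of 24 arrays, for the 14 largest rises, the 14 largest falls, Kitl and Bmper. The diagonal marks equal change. Among the rises Matn1 lies furthest below the diagonal (3.89 and 2.61), while Kit, Dlx2, Cadps, Phlda2 and Kif26a lie near 0 in control cultures, and only Kitl and Bmper passed the test of the difference.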

How the data were processed

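Total RNA of 30 cultures was hybridised to Affymetrix mouse arrays. The authors deposited linear probe set intensity values made with MAS5, per the submitters' processing notes, with settings not given in the sources used here. On each array the mean of the values without the top and bottom 2% was 150, so no further scaling was applied, and the number of arrays limits the precision. Scanner files were not used here.

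Of 45101 probe sets, 34945 had 1 gene symbol, 932 several and 9160 none in the platform annotation, and 64 were controls. A probe set was kept where its signal was above the array's 40th percentile on at least 2 of 30 arrays, and the brightest on average stood for its gene, leaving 15136 genes. Values were log2(signal + 16), which understates changes of dim genes. Tests used limma 3.58.1 in R 4.3.3 (lmFit, eBayes with trend, two-sided, Benjamini-Hochberg at 0.05): population plus day on the 12 BMP4 arrays (8 residual degrees of freedom), 6 group means for single populations and the F test, and 12 group means on 24 arrays for BMP4 against control. The scripts were tested on simulated data. For the 103 named genes past a threshold, 63 of 65 other probe sets had the same sign.

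The members and the 40 gene lists (557 of 607 genes tested, 18 on the array but dim, 32 without a probe set of their own) were chosen with earlier results of these data known. Named were the 14 largest rises and falls with 1 sign in all populations, the 12 smallest F test p, all past the threshold for BMP4 minus control, up to 4 members per list, and 12 fixed genes, and some further list members were named after their values were seen. Some genes are in several lists.

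Alternatives were the pseudocount, filter, centring, quantile normalization, mean of probe sets, the variance trend, other array sets, a block for replicate number and leaving out arrays.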

Additional observations from a re-analysis of the deposited data

Results flagged for a closer look

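Single arrays far from the other 5 of their day were found for 5 of 80 gene and day combinations checked (40 genes), and chance alone gives about 1 in 20. All 5 were early cultures of replicate 2. At day 2 Rtl3 read 6.83 there, with the nearest array at 9.52, and Phlda2 read 8.26, with the nearest at 7.57. Sox9 read 8.06 at day 1, with the nearest at 9.43. Col2a1 read 10.05 at day 1, with the nearest at 11.3, and 10.25 at day 2, with the nearest at 11.63.

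For Kitl and Bmper the second-day change differed between BMP4 and control cultures by limma, by -1.44 and -1.01 on the log2 scale, both with adjusted p 0.00655. Within populations the Kitl change with BMP4 was -0.43 in early, -0.51 in intermediate and 0.14 in late cultures, and that of Bmper was 0.09, 0.07 and 0.11.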

How the results depend on the processing

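With 2 arrays per group, calls near the threshold moved with single arrays. Of 102 named genes past it in BMP4 cultures, 60 passed in each of the 12 fits that left out 1 array and 88 without the early arrays of replicate 2; of the 28 largest changes 25 and 26 did. None of the 102 changed sign in any alternative run. Leaving out 1 array gave 331 to 582 genes for day 2 against day 1, 0 to 0 for the F test, 2 to 11 for BMP4 minus control (11 without intermediate BMP4 day 1 replicate 1), and 2 to 20, 1 to 35 and 0 to 60 for early, intermediate and late cultures. Without the early BMP4 arrays of replicate 2, early cultures gave 0 genes and BMP4 minus control 1 (Bmper). Late cultures gave 6 genes with log2(signal + 1), 81 with log2(signal + 64) and 21 without a filter, and intermediate cultures 16 without a filter. Fitted with all 30 arrays, the counts were 61, 92 and 101 for early, intermediate and late, and Bmper had adjusted p 0.0956. With the 24 arrays of days 1 and 2, a fit chosen after seeing the data, 830 genes passed for day 2 against day 1. Median centring gave 313 rises and 301 falls. The causes were not tested.

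Deviations of same-numbered arrays correlated at 0.25 in early, 0.27 in intermediate and 0.04 in late cultures, and the main fits did not take numbers as pairs. Some of the spread was nonetheless shared by number. The early arrays of replicate 2 stood apart at both days. The mean level of p53 targets was higher on replicate 2 than on replicate 1 in each group (early 9.16 against 8.43 at day 1 and 9.61 against 8.8 at day 2). Calls therefore depended on this choice. With replicate number as a block, 945 genes passed for day 2 against day 1 with 1 block over all populations and 874 with blocks within populations. Blocks within populations gave 122, 227 and 198 genes for early, intermediate and late, 5 for the F test and 56 for BMP4 minus control. Genes past no threshold changed sign in places: Gata6 (0.01 with log2(signal + 64), -0.3 to 0.15 leaving out 1 array), Meis2 (-0.02 with median centring, -0.08 without the early arrays of replicate 2, -0.11 to 0.17 leaving out 1), Tbx20 (0.19 with the mean of probe sets, -0.26 to 0.08 leaving out 1), Tbx4 (0.07 with the mean of probe sets, 0.01 without the early arrays, -0.11 to 0.07 leaving out 1) and Tbx5 (0.06 without the early arrays, -0.32 to 0.02 leaving out 1).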

Other observations

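Ogn, Omd and Aspn, which encode related small leucine-rich proteoglycans, stand in a row on mouse chromosome 13. Omd, chosen after its values were seen, rose by 1.02 ± 0.22 in BMP4 cultures (limma adjusted p 0.0192), with 0.28, 1.57 and 1.21 in early, intermediate and late cultures, and by 0.71 ± 0.18 in control cultures.

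The genes below were also chosen after their values were seen. Nupr1, a stress-induced chromatin protein gene, rose by 1.64 ± 0.14 in BMP4 cultures (limma adjusted p 0.000136) and by 1.69 ± 0.18 in control cultures. Eln, for elastin, rose by 1.39 ± 0.16, and by 1.67 ± 0.11 in control cultures. Cthrc1, a secreted collagen triple helix protein gene, rose by 1.03 ± 0.1 with BMP4 and 1.72 ± 0.09 without. Gpm6b, a membrane glycoprotein gene, rose by 1.76 ± 0.24 with BMP4 and had a change of 0.26 ± 0.17 without, a difference just short of the threshold (adjusted p 0.0513).

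Of the genes past the threshold in single populations, 1 of 28 in intermediate and 7 of 36 in late cultures did not pass over all 3. Ikzf1, a haematopoietic factor, had a change of 1.47 in intermediate cultures, against 0.04 in early and 0 in late ones. Of the 7, Nkd1, a WNT feedback gene, had 1.04 in late cultures, against -0.01 and 0.06. Without a block for replicate number, the differences between populations did not pass the F test.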
